A study of Bos taurus with 21 samples.

Results

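The nerve that enters a muscle brings motor axons, their terminals and the Schwann cells that wrap them, and 8 genes of these cells were followed here through the second part of gestation in cattle. *SNAP91* was chosen because of its steep drop over gestation in these arrays, so its course is described without a test. The other 7 genes were chosen by function, *SNAP25* and *SYT1* for the nerve terminal, *GAP43* and *STMN2* for the growing axon, and *PMP22*, *MBP* and *S100B* for the Schwann cell and its myelin, to see whether axonal or myelin genes shared that drop. All probes whose RefSeq transcript belongs to one of these genes in the cattle annotation were taken, which gave 22 of the 43653 probes and 8 of the 12538 genes named on the array.

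Muscle RNA of 21 foetuses was measured, each on its own Cy3 microarray for cattle genes. The Blonde d'Aquitaine (BA), a hypermuscular French beef breed, gave 3, 2, 3 and 2 foetuses at 110, 180, 210 and 260 days post-conception (dpc), and the Charolais (CH), the reference beef breed, gave 2, 3, 3 and 3. No foetus was treated, each came from a cow and a bull of its own breed, and the 10 BA foetuses (3 males, 7 females) and the 11 CH foetuses (5 males, 6 females) came from 2 sires per breed, so breed and sire cannot be told apart. At 110 dpc 2 of 3 BA and 0 of 2 CH foetuses were male, and at 260 dpc 0 of 2 and 2 of 3. Sex is thus partly mixed with stage within each breed, and with the breed difference of the change. The BA foetuses were not genotyped for the myostatin mutation that many animals of the breed carry, and the sample labels name *m. Longissimus thoracis* whereas the study's methods name *m. Semitendinosus*.

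The motor neurone keeps its cell body in the spinal cord and reaches the muscle only with its axon, whose terminal releases acetylcholine when calcium-sensing synaptotagmin triggers the fusion of vesicles by the SNARE proteins. The vesicle membrane is then taken back by endocytosis with clathrin, which the assembly protein encoded by *SNAP91* (AP180) helps to build into a coat of the right size. Schwann cell precursors travel along the growing axons, become immature Schwann cells, and those around large axons then wrap them in compact myelin.

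The tissue was muscle by its markers on every array. The 6 muscle fibre genes, among them *ACTA1*, *CKM* and *DES*, were well above background on all 21 arrays, with a mean level between 9.17 and 10.80 over the 8 groups on a log2 scale with its 0 at the level of the median probe. Of 4 genes of central nervous system myelin, *MOG*, *OPALIN* and *OMG* had probes, and none of these was detected on all arrays of any group. The arrays had 29017 to 34501 probes well above background, and a group of 2 or 3 arrays limits the precision of every value below. RNA of a whole muscle was measured, so fewer cells of a type and less RNA per cell cannot be told apart.

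Of the 22 probes, 17 were well above background on all arrays of at least 1 group, and every gene had at least 1 such probe. A gene was measured by its brightest probe. The 3 probes that never rose above background were 1 each of *SYT1*, *GAP43* and *STMN2*. Levels of different probes are not comparable, and only changes are set side by side between genes.

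**Figure D1:**
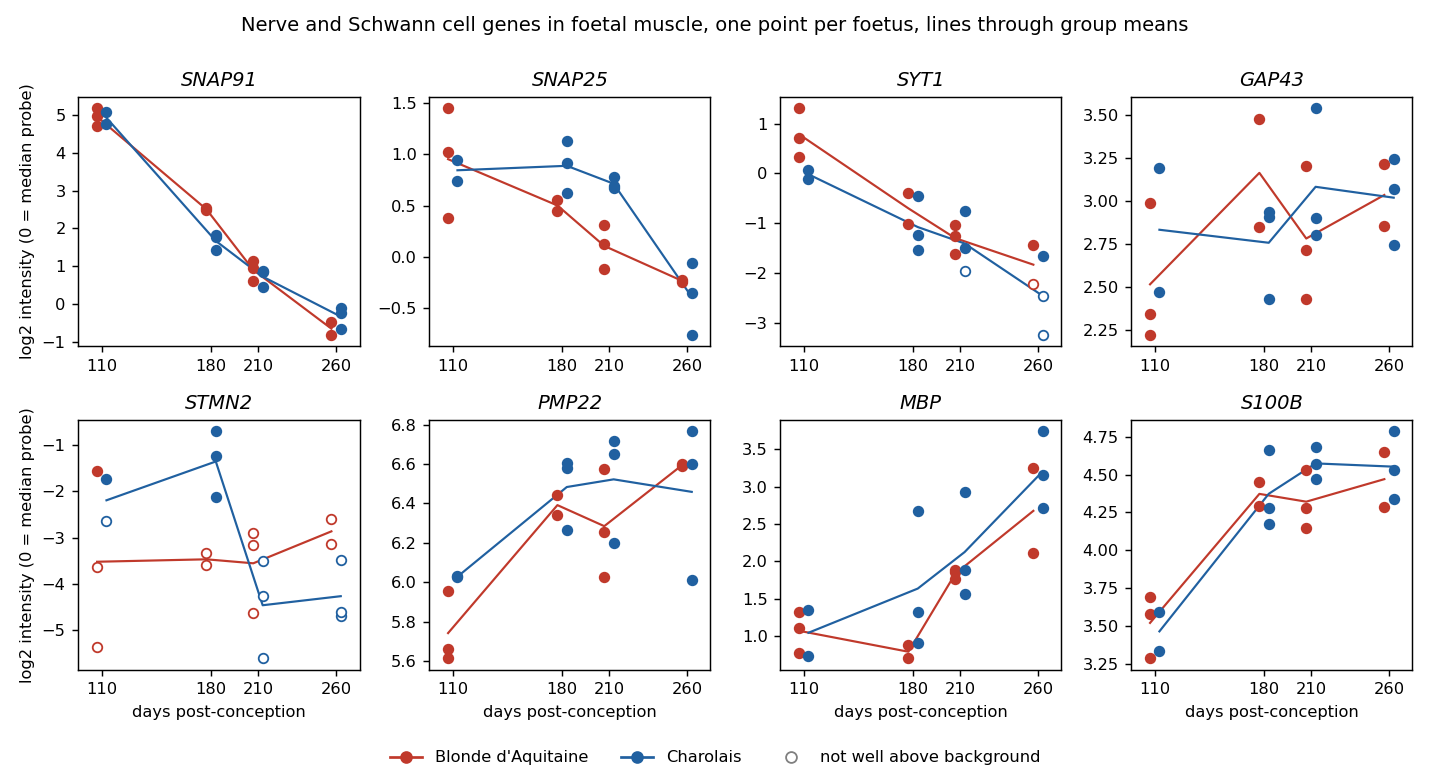
Normalized log2 intensity of the brightest probe of each of the 8 genes (vertical axes, each with its own range) against gestational age in days post-conception, 1 point per foetus, BA in red and CH in blue, with lines through the group means and open points where the probe was not well above background. *SNAP91* stands near 5 at 110 dpc and below 0 at 260 dpc in both breeds, *MBP* and *S100B* stand higher at 260 than at 110 dpc, and *STMN2* is mostly open points.

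*SNAP91* was 43.5-fold lower at 260 than at 110 dpc on average over the breeds, and it was lower at each later stage in both. In BA, the 3 foetuses at 110 dpc had log2 levels of 4.97, 5.19 and 4.72, those at 180 dpc 2.53 and 2.48, those at 210 dpc 0.62, 0.94 and 1.14, and those at 260 dpc −0.49 and −0.83. In CH, the levels were 4.78 and 5.09, then 1.42, 1.76 and 1.83, then 0.88, 0.84 and 0.46, and finally −0.65, −0.11 and −0.25. Within each breed no foetus of a stage overlapped with a foetus of the next one. The change from 110 to 260 dpc was −5.44 ± 0.15 (log2, SE, n = 5 foetuses at each stage), of which −2.86 lay between 110 and 180 dpc, −1.28 between 180 and 210 dpc and −1.31 between 210 and 260 dpc. Only 12 of 10431 detected genes had a lower fitted value, since *SNAP91* took rank 13 from the lowest. These values chose the gene and are a description.

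The other probes of *SNAP91* ran the same way. Probe A_73_P256681 changed by −5.32 and probe A_73_P081011 by −4.87 on the log2 scale. The latter was not well above background in any CH foetus at 260 dpc, and CH foetuses at 110 dpc were at least 17.4-fold higher, the bound being set by the lowest signal that counts as well above background on each array. On the only slide that held arrays of both 110 and 260 dpc, a BA foetus at 110 dpc and a CH foetus at 260 dpc, *SNAP91* differed by −5.08, so that this pair differs in breed as well. Within the 2 scan days with both stages it differed by −5.83 and −5.26.

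Of the 7 genes chosen by function, 5 passed the test from 110 to 260 dpc (adjusted p under 0.05 in limma, over all probes), 3 higher and 2 lower at 260 dpc. Over all named genes by their brightest probe, 51.0% passed, 25.0% higher and 26.0% lower, so that a call in either direction was common. *SYT1* and *SNAP25* fell, *MBP*, *S100B* and *PMP22* rose, and *GAP43* and *STMN2* did not pass. The 2 that fell like *SNAP91* were the genes of vesicle release, but 2 of 7 is near the 26.0% of all named genes. They do not stand for their function. In the longer lists below, 10 of 12 detected axon genes were lower and 1 higher. *NEFL* and *DCX* counted as detected there only through groups at 110 dpc, so the count of lower genes leans that way. Of 15 detected genes of vesicle release, 3 were lower and 2 higher. Among all detected genes, 30.3% were lower and 28.8% higher.

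*SYT1*, the calcium sensor for transmitter release, fell the most among the 7 genes and came closest to *SNAP91*. In BA its log2 levels were 0.72, 1.32 and 0.33 at 110 dpc, −1.01 and −0.40 at 180 dpc, −1.03, −1.26 and −1.62 at 210 dpc, and −1.45 and −2.22 at 260 dpc. In CH they were 0.08 and −0.11, then −0.46, −1.54 and −1.24, then −0.76, −1.50 and −1.97, and −1.66, −2.47 and −3.25. The foetuses at 110 dpc lay above all later ones in both breeds, whereas those from 180 dpc on overlapped in CH and those at 210 and 260 dpc overlapped in BA. The fitted change to 260 dpc was −2.53 ± 0.33 (log2, SE), with an adjusted p of 1.1e-05 in limma. Since 2 of 5 foetuses at 260 dpc were well above background, with the other levels raised to the lowest signal well above background of their array the gene was at least 5.18-fold lower. The step from 110 to 180 dpc alone, −1.28, had an adjusted p of 0.017 in limma, and without either of 2 foetuses (BA at 180 dpc replicate 1, CH at 110 dpc replicate 1) or with slide as a block it lost the call. The probe was not well above background on 4 arrays, 3 of them at 260 dpc. Neither of the other probes of *SYT1* was detected in any group.

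*SNAP25*, a SNARE protein of the nerve terminal membrane, fell by similar amounts at each step in BA and mostly after 210 dpc in CH. Its BA levels were 1.45, 1.02 and 0.38 at 110 dpc, 0.55 and 0.45 at 180 dpc, −0.11, 0.32 and 0.12 at 210 dpc, and −0.23 and −0.24 at 260 dpc. Its CH levels stayed between 0.63 and 1.13 in the 8 foetuses from 110 to 210 dpc and were −0.35, −0.06 and −0.76 at 260 dpc. All 5 foetuses at 260 dpc lay below every foetus at 110 and 180 dpc. The change from 110 to 260 dpc was −1.21 ± 0.18 (log2, SE), 2.31-fold lower, with an adjusted p of 5.0e-05 in limma. Of the 3 steps averaged over the breeds, that from 210 to 260 dpc passed, −0.72 with an adjusted p of 0.0062 in limma. The early step, the longest in days and the one in which *SNAP91* dropped most, was −0.20 with an adjusted p of 0.56 in limma. The steps were −0.45, −0.39 and −0.34 in BA and 0.04, −0.17 and −1.10 in CH, and whether the breeds differed in a step was not tested.

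*GAP43*, a growth cone protein of extending axons that Schwann cells can also make, did not follow *SNAP91*. Its levels were 2.22, 2.34 and 2.99 in BA and 2.47 and 3.19 in CH at 110 dpc, and 2.85 and 3.22 in BA and 3.07, 3.24 and 2.74 in CH at 260 dpc. The 2 stages overlapped in both breeds. The change was 0.35 ± 0.23 (log2, SE), with a 95% confidence interval from −0.14 to 0.84 and an adjusted p of 0.23 in limma, an interval that holds no fall of the size seen in *SYT1* or *SNAP25*.

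*STMN2*, a microtubule regulator of growing axons, was at the edge of detection. Its brightest probe was well above background on 5 of 21 arrays, namely 1 of 3 BA and 1 of 2 CH foetuses at 110 dpc and all 3 CH foetuses at 180 dpc, with levels of −1.57, −1.75, and −0.71, −2.12 and −1.25. No foetus of either breed at 210 or 260 dpc reached that mark on this probe. The fitted change from 110 to 260 dpc was −0.71 ± 0.62 (log2, SE; adjusted p 0.38 in limma), with an interval from −2.02 to 0.61. A second probe, A_73_P323371, was well above background on 7 arrays, which were both CH foetuses at 110 dpc, all 3 at 180 dpc and 1 each at 210 and 260 dpc, and on no BA array.

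The 3 members of the Schwann cell and its myelin were higher at 260 than at 110 dpc by their brightest probe. Of 11 detected genes of young Schwann cells, 3 were lower (*ERBB3*, *NGFR* and *FABP7*), 2 were higher (*ITGB4* and *GFAP*) and 6 did not pass. Neither count exceeded the share among all detected genes, 30.3% lower and 28.8% higher. *S100B*, a calcium-binding protein used as a marker of Schwann cells and also made by fat cells and cartilage, rose early and then stayed level. At 110 dpc its levels were 3.58, 3.69 and 3.28 in BA and 3.59 and 3.34 in CH, and all 16 later foetuses lay between 4.15 and 4.79, with no overlap. The change to 260 dpc was 1.02 ± 0.13 (log2, SE), 2.03-fold higher, with an adjusted p of 1.3e-05 in limma. The step from 110 to 180 dpc made up 0.88 of it (adjusted p 4.1e-04 in limma), and the later steps were 0.07 and 0.06. The other probes of the gene rose by 0.69 and 0.75, with adjusted p of 0.0013 and 6.0e-04 in limma.

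*PMP22*, a membrane protein of compact myelin that fibroblasts and other cells make too, rose by less. Its levels at 110 dpc were 5.95, 5.61 and 5.66 in BA and 6.03 and 6.02 in CH, and at 260 dpc 6.59 and 6.60 in BA and 6.60, 6.01 and 6.77 in CH. The CH foetus at 6.01 was as low as those at 110 dpc, and the other 4 were higher than all of them. The change was 0.64 ± 0.16 (log2, SE), 1.56-fold higher, with an adjusted p of 0.0034 in limma, and the other probes of the gene rose by 0.69 and 0.96. The call on the brightest probe was lost with quantile normalization (0.35, adjusted p 0.093 in limma), in the unscaled values of the authors' table (0.25, adjusted p 0.45) and with slide as a block (0.66, adjusted p 0.098). On the slide that held both stages the pair differed by 0.06, and it set the highest BA foetus at 110 dpc, 5.95, against the CH foetus at 6.01, so that it crosses the breeds.

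*MBP*, the basic protein that binds the myelin membranes together, rose. Its levels in BA were 1.32, 0.78 and 1.12 at 110 dpc, 0.88 and 0.70 at 180 dpc, 1.89, 1.86 and 1.76 at 210 dpc, and 3.25 and 2.11 at 260 dpc. In CH they were 0.74 and 1.36, then 2.68, 1.32 and 0.91, then 2.93, 1.56 and 1.89, and 3.74, 2.72 and 3.16. All 5 foetuses at 260 dpc lay above all 5 at 110 dpc, whereas 1 CH foetus at 180 dpc and 1 at 210 dpc already reached levels seen at 260 dpc. The change was 1.88 ± 0.35 (log2, SE), 3.69-fold higher, with an adjusted p of 3.4e-04 in limma. The step from 210 to 260 dpc, 0.96, was just past the threshold (adjusted p 0.046 in limma) and lost the call in 16 of the 21 fits that left out 1 array, with values from 0.68 to 1.25.

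The 3 probes of *MBP* did not behave alike. Probe A_73_P388456, well above background on 10 arrays and on 4 of 5 at 260 dpc, rose by 1.70 (adjusted p 0.0077 in limma). Probe A_73_112121 was well above background on all 21 arrays and differed by 0.04 ± 0.21 (log2, SE), with an interval from −0.40 to 0.48. The gene is known to make, from another start, the longer golli transcripts, which are also found outside myelin. Which transcripts each probe reads was not tested.

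**Figure D2:**
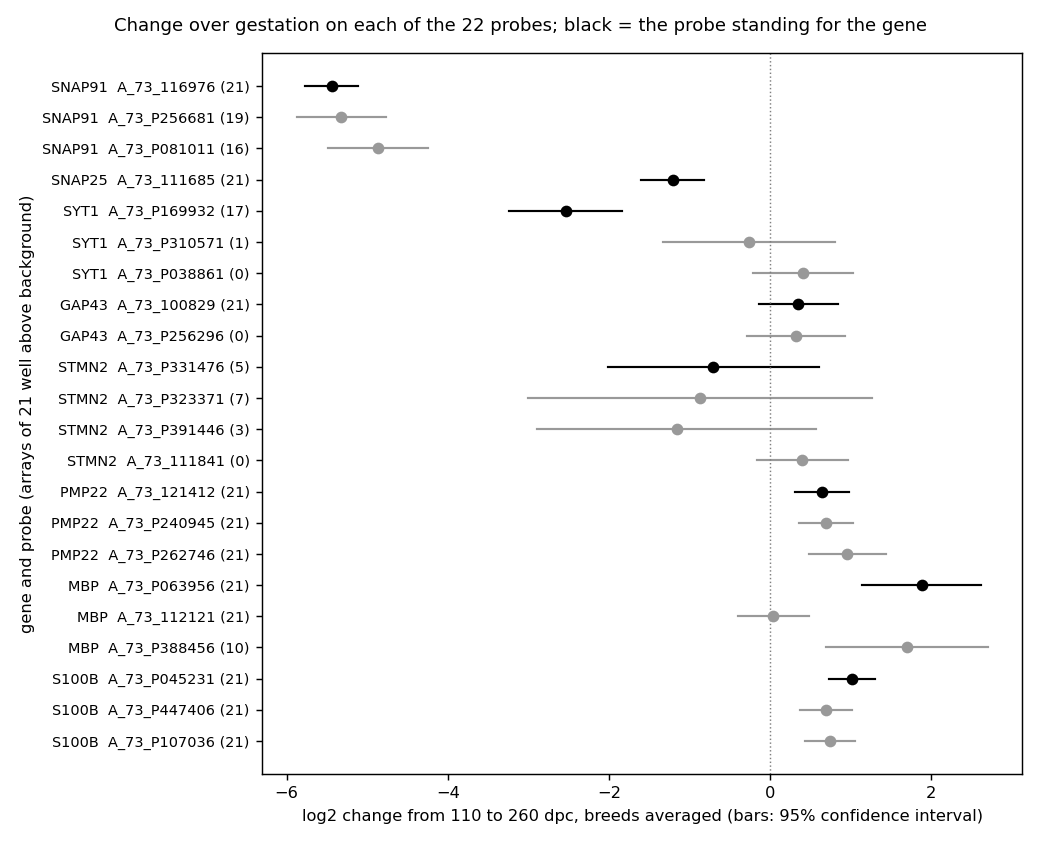
Log2 change from 110 to 260 dpc, breeds averaged, for each of the 22 probes of the 8 genes (horizontal axis), with 95% confidence intervals, the probe that stands for the gene in black, and the number of the 21 arrays on which the probe was well above background in brackets. The 3 probes of *SNAP91* lie between −5.44 and −4.87, all 3 of *PMP22* and all 3 of *S100B* lie above 0, and 1 probe of *MBP* lies at 0.04.

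Set side by side over the stages, the genes ran different courses. The steps between stages span unequal numbers of days, so a larger step is not a faster change. Averaged over the breeds, *SNAP91* and *SYT1* had their largest steps between 110 and 180 dpc, *SNAP25* between 210 and 260 dpc. For *SYT1* the first and last steps were close in CH, −1.06 and −1.05, and for *SNAP25* the last step was the largest in CH and the smallest in BA. *S100B* and *PMP22* rose between 110 and 180 dpc, 0.88 and 0.55 on the log2 scale (adjusted p 4.1e-04 and 0.030 in limma). The call of *PMP22* at that step was lost with slide as a block, in the authors' table and in 8 of the 21 fits without 1 array. Of the 7 genes, 3 passed at the first step (16.7% of all named genes), none at the step from 180 to 210 dpc (4.54%) and 2 at the last step (30.5%). At the middle step, 2 of the 7 were past the threshold before adjustment, *STMN2* at −1.59 and *MBP* at 0.77 (adjusted p 0.17 and 0.26 in limma). The step of *STMN2* was −0.09 in BA and −3.10 in CH, and no foetus at 210 dpc was well above background on its probe.

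Over the 8 group means, the course of *SYT1* had a Pearson correlation of 0.95 with that of *SNAP91*, that of *SNAP25* 0.79 and that of *STMN2* 0.31. Those of *GAP43*, *MBP*, *PMP22* and *S100B* were −0.58, −0.85, −0.88 and −0.92. All these values share the arrays and their scaling and are descriptions. Among 777 detected genes whose group means had an SD of at least 1, *SYT1* took rank 98 for likeness. The 10 genes most like *SNAP91* had correlations from 0.99 to 0.998. They were *GNG4*, a gamma subunit of G proteins, *KIF24*, *ABAT*, the enzyme that degrades GABA, *ISYNA1*, which makes inositol phosphate, *LDOC1*, *INKA2*, *RNF182*, *PTPN5*, a phosphatase best known from brain, *MTURN* and *HES6*, a transcription factor of neurogenesis and myogenesis. Of these, *GNG4*, *KIF24*, *ABAT*, *RNF182* and *PTPN5* were well above background on all 5 arrays at 110 dpc and on none at 260 dpc, so that the ends of their courses are background levels and only a bound can be given for their falls. *GNG4* was at least 16.7-fold (BA) or 14.9-fold (CH) higher at 110 than at 260 dpc, and the bounds of the other 4 lay between 2.11-fold and 4.17-fold. The 5 genes still measured at 260 dpc changed by −3.56 to −2.63 on the log2 scale, *MTURN* with 3 of 5 arrays well above background at that stage.

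**Figure D3:**
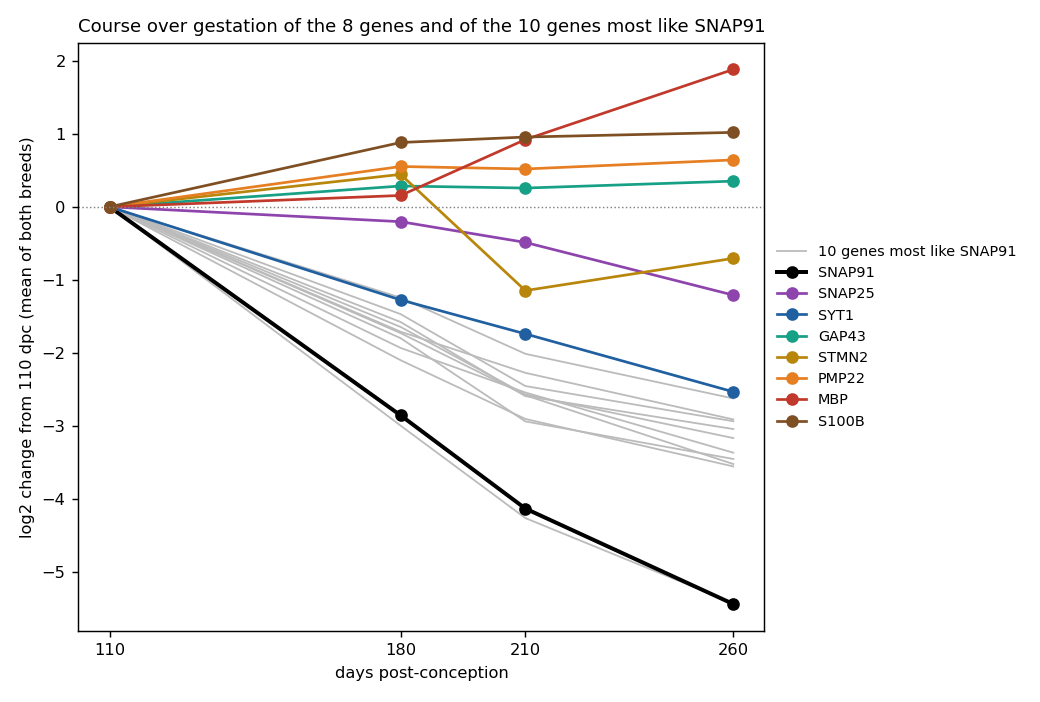
Log2 change from the 110 dpc level (vertical axis, mean of the BA and CH group means) at 110, 180, 210 and 260 dpc for the 8 genes, and in grey for the 10 genes whose course is most like that of *SNAP91*. *SYT1* and *SNAP25* end at −2.53 and −1.21, *GAP43*, *PMP22*, *S100B* and *MBP* end between 0.35 and 1.88, and the grey lines of *GNG4*, *KIF24*, *ABAT*, *RNF182* and *PTPN5* end at levels not well above background.

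More genes of each compartment were read from lists, counting the genes that were detected on all arrays of at least 1 group. Of the detected genes on the array, 28.8% passed as higher and 30.3% as lower at 260 than at 110 dpc, with a median change of 0.01 on the log2 scale. Of 25 genes of the axon cytoskeleton and of axon growth, 19 had a probe and 12 were detected, of which 10 were lower, 1 higher and 1 did not pass, with a median change of −1.81. With levels not well above background raised to the lowest signal well above background of their array, this median was −1.20. *NEFL* and *DCX* counted as detected only through groups at 110 dpc, so they could only fall and the count of lower genes leans that way. With levels so raised they changed by −0.02 and −1.11. *DPYSL5*, a regulator of growth cones, fell by 4.72, *BASP1*, a growth cone protein related to *GAP43* in function, fell by 2.72, and *UCHL1*, an abundant neuronal ubiquitin hydrolase, fell by 3.60, with adjusted p of 3.5e-12, 2.1e-09 and 1.3e-08 in limma. *MAPT*, the axonal microtubule protein tau, rose by 2.95 (adjusted p 7.0e-09 in limma). The neurofilament gene *NEFM*, the neuronal tubulin *TUBB3* and *ELAVL4* had probes but were not detected.

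Genes of the synaptic vesicle and its release showed no common direction. Of 28 listed, 20 had a probe and 15 were detected, 2 higher, 3 lower and 10 that did not pass, with a median of 0.33 on the log2 scale. The SNARE genes *VAMP1* and *STX1A* rose by 0.95 and 0.97 (adjusted p 1.3e-04 and 2.9e-04 in limma). *DNM1*, the dynamin of neurones, *SYT4* and *AMPH* fell by 0.75, 1.14 and 1.06 (adjusted p 0.0053, 0.024 and 0.039), *AMPH* with 1 of 5 arrays well above background at 260 dpc.

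The clathrin machinery that *SNAP91* belongs to changed by far less than *SNAP91*. All 14 listed genes were detected, with changes between −0.52 and 0.94 and a median of −0.03 on the log2 scale. *CLTB*, a clathrin light chain, and *EPN2* rose by 0.94 and 0.54 (adjusted p 2.9e-06 and 4.4e-04 in limma), while *CLTA*, *AP2M1*, *CLTC* and *AP2B1* fell by 0.52, 0.42, 0.50 and 0.34, and 8 did not pass. *PICALM*, the widely expressed relative of *SNAP91*, differed by −0.06 ± 0.09 (log2, SE; adjusted p 0.61 in limma). Among 8 detected relatives of the members that many cells use, *STMN1* and *SYT11* fell by 2.66 and 1.74, *S100A1* and *EMP2* rose by 3.40 and 1.92, and *SNAP23*, the relative of *SNAP25*, differed by 0.17 (adjusted p 0.18 in limma).

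The genes of young Schwann cells had no common direction. Of 15 genes of Schwann cell precursors and immature Schwann cells, 11 were detected, 3 lower, 2 higher and 6 that did not pass. *ERBB3*, the neuregulin receptor that these cells need, fell by 3.78, *NGFR*, the low-affinity neurotrophin receptor, by 1.76, and *FABP7* by 2.25 (adjusted p 1.2e-10, 3.6e-08 and 3.2e-06 in limma). Which cells of the muscle made these RNAs was not measured. *ITGB4*, a laminin receptor subunit, and *GFAP* rose by 2.63 and 1.95 (adjusted p 1.4e-07 and 8.5e-04). *GFAP* was well above background on 3 of 5 arrays at 110 dpc. With its other levels raised to the lowest signal well above background of their array, *GFAP* rose by 1.63. *SOX10*, the defining transcription factor of the lineage, was well above background on 15 arrays and differed by −0.71 ± 0.36 (log2, SE; adjusted p 0.13 in limma).

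Of 15 other myelin genes, 11 had a probe and 8 were detected, 3 higher, 1 lower and 4 that did not pass, with a median of 0.78 on the log2 scale. Among all detected genes, 28.8% were higher and 30.3% lower. *PMP2* and *PLLP* counted as detected only through groups after 110 dpc, so the count of higher genes leans that way. *PMP2*, a lipid-binding protein of peripheral myelin, rose by 3.28, *PLLP* by 2.64 and *MAL* by 1.34 (adjusted p 0.0024, 4.7e-05 and 7.3e-04 in limma). *PMP2* was well above background on none of 5 arrays at 110 dpc and on 4 of 5 at 260 dpc, so that its 3.28 is taken against background, and in CH it was at least 6.90-fold higher at 260 dpc. *PLLP* was well above background on 2 of 5 arrays at 110 dpc. *CNP*, which many cells besides myelinating ones make, fell by 1.03 (adjusted p 1.9e-06). *MAG*, an adhesion protein between the myelin sheath and the axon, differed by −0.39 and did not pass (adjusted p 0.14 in limma).

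**Figure D4:**
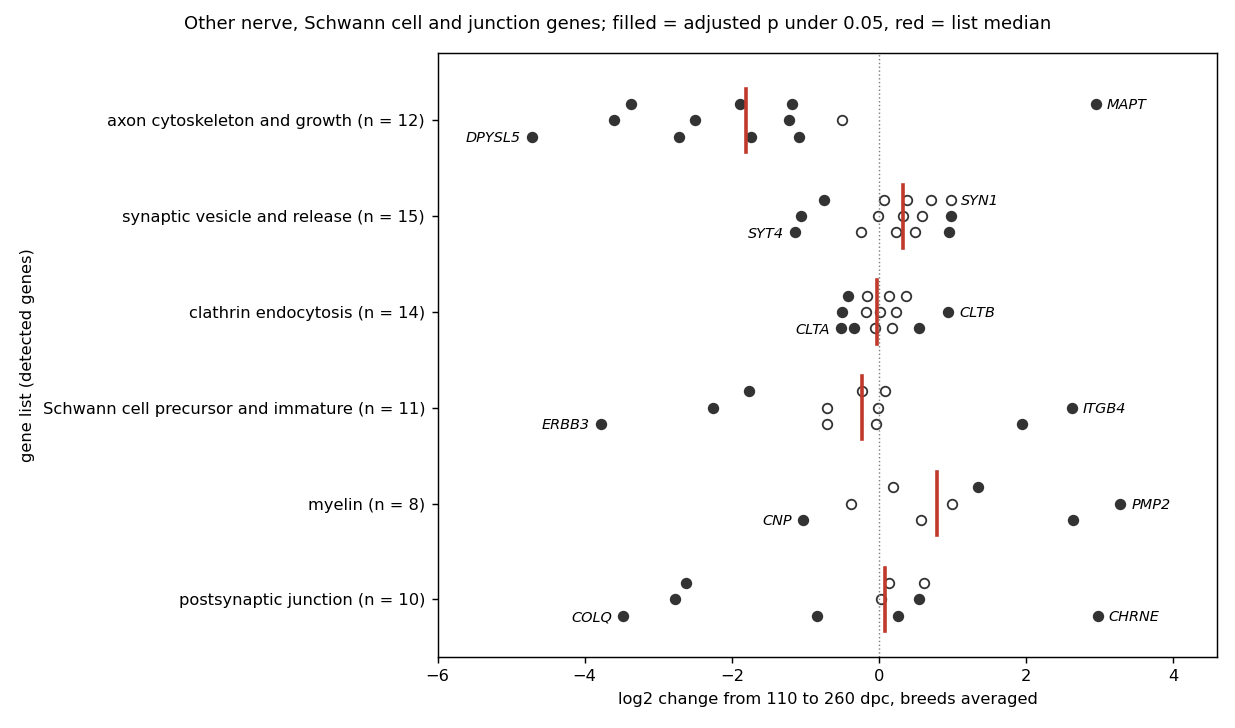
Log2 change from 110 to 260 dpc, breeds averaged (horizontal axis), for the detected genes of 6 lists (vertical axis, 1 point per gene, spread vertically to separate them), filled where the adjusted p was under 0.05, with the list median in red and the lowest and highest gene named. The fitted median, which counts background levels as measured, is −1.81 for the axon list and 0.78 for the myelin list, and it lies between −0.24 and 0.33 for the other 4 lists.

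Other cell types and the muscle side of the junction moved over the same stages. Of 10 detected postsynaptic genes, 4 were lower and 3 higher. The foetal receptor subunit *CHRNG* fell by 2.77 and the adult subunit *CHRNE* rose by 2.97 (adjusted p 4.7e-08 and 1.8e-08 in limma), *MUSK* and *COLQ* fell by 2.62 and 3.48, and *ACHE* and *CHRNA1* rose by 0.54 and 0.26. *COLQ* was well above background on no array at 260 dpc, and was at least 5.50-fold (BA) or 4.44-fold (CH) lower there. Of 6 muscle fibre genes, 5 were higher and *MYH3*, the embryonic myosin, lower, and their mean level over the list went from 9.17 and 9.37 at 110 dpc in BA and CH to 10.80 and 10.73 at 260 dpc. All 4 detected genes of proliferating cells were lower (median −2.60), 3 of 5 fibroblast genes were lower, 2 of 4 endothelial genes were higher and 1 lower, and 2 of 4 leukocyte genes were higher, *CD68* by 0.83 and *CD3E* by 3.21. The last value is taken against 110 dpc levels of which 1 of 5 was well above background, and *CD3E* was at least 3.49-fold higher at 260 dpc in CH. The part of these shifts in the changes of the 8 genes was not tested.

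The breed comparison asked whether any of the 8 genes differed between BA and CH. None of the 8 passed in any of the 5 breed differences, at 110, 180, 210 or 260 dpc or on average, nor in the breed difference of the change from 110 to 260 dpc. These comparisons called few genes at all, 0.0718% on average over the stages, 0.0239% at 110, 180 and 260 dpc, 0.00798% at 210 dpc and 0.0160% for the change. At an unadjusted p under 0.05 in limma stood *SNAP91* at 180 dpc, *SNAP25* at 210 dpc, *STMN2* at 180 dpc, and *STMN2* for the change.

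*SNAP91* at 180 dpc showed the smallest of these p-values. Both BA foetuses, 2.53 and 2.48, lay above the 3 CH foetuses, 1.42 to 1.83. The difference was 0.84 ± 0.22 (log2, SE), 1.79-fold, with an adjusted p of 0.52 in limma. At 110, 210 and 260 dpc the difference was 0.03, 0.18 and −0.32, and averaged over the stages it was 0.18 with an interval from −0.05 to 0.41. The change from 110 to 260 dpc was −5.62 in BA and −5.27 in CH, and the difference of these changes was −0.35 (95% confidence interval −1.0 to 0.31, adjusted p 0.99 in limma). The other probes gave the opposite sign, 0.70 on probe A_73_P256681 (95% confidence interval −0.40 to 1.81, adjusted p 0.97 in limma) and 1.98 on probe A_73_P081011 (adjusted p 0.83 in limma). At 260 dpc the first was well above background in 2 of 2 BA and 1 of 3 CH foetuses and the second in 1 of 2 and 0 of 3, so both rest on background levels in CH, and the direction of this difference is not settled.

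*SNAP25* at 210 dpc was lower in all 3 BA foetuses, −0.11 to 0.32, than in the 3 CH foetuses, 0.67 to 0.78. The difference was −0.61 ± 0.23 (log2, SE), with an adjusted p of 1.00 in limma.

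*STMN2* at 180 dpc was well above background in all 3 CH foetuses and in neither BA foetus, which made CH at least 2.27-fold higher on its brightest probe. Probe A_73_P323371 gave at least 1.49-fold at 180 dpc and at least 2.13-fold at 110 dpc, in the same direction, whereas on probe A_73_P391446 each breed had 1 foetus well above background at 180 dpc and at 110 dpc only 1 BA foetus was. The fitted difference on the brightest probe was −2.11 ± 0.87 (log2, SE; adjusted p 0.81 in limma). The change from 110 to 260 dpc differed between the breeds by 2.72 ± 1.23 (SE; adjusted p 0.94 in limma), from 0.66 in BA and −2.07 in CH, and it rests on levels not well above background at 260 dpc.

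For the myelin genes the average breed difference was −0.41 for *MBP* (interval −0.92 to 0.10) and −0.12 for *PMP22* (−0.35 to 0.11), and for *S100B* −0.07 (−0.27 to 0.13), all on the log2 scale. *PMP22* passed from 110 to 260 dpc in BA, 0.85 with an adjusted p of 0.0074 in limma, and not in CH, 0.43 with an adjusted p of 0.16. The difference between these changes was 0.42, with an interval from −0.25 to 1.10 and an adjusted p of 0.97 in limma, so that the breeds were not shown to differ. *MBP*, *S100B*, *SYT1* and *SNAP25* passed in both breeds in the same direction. Of all named genes, 39.7% passed for that change in BA and 39.2% in CH. None of the 100 other listed genes passed in a breed comparison, the smallest p on average being that of *EDNRB*, −0.64 with an adjusted p of 0.15 in limma.

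**Figure D5:**
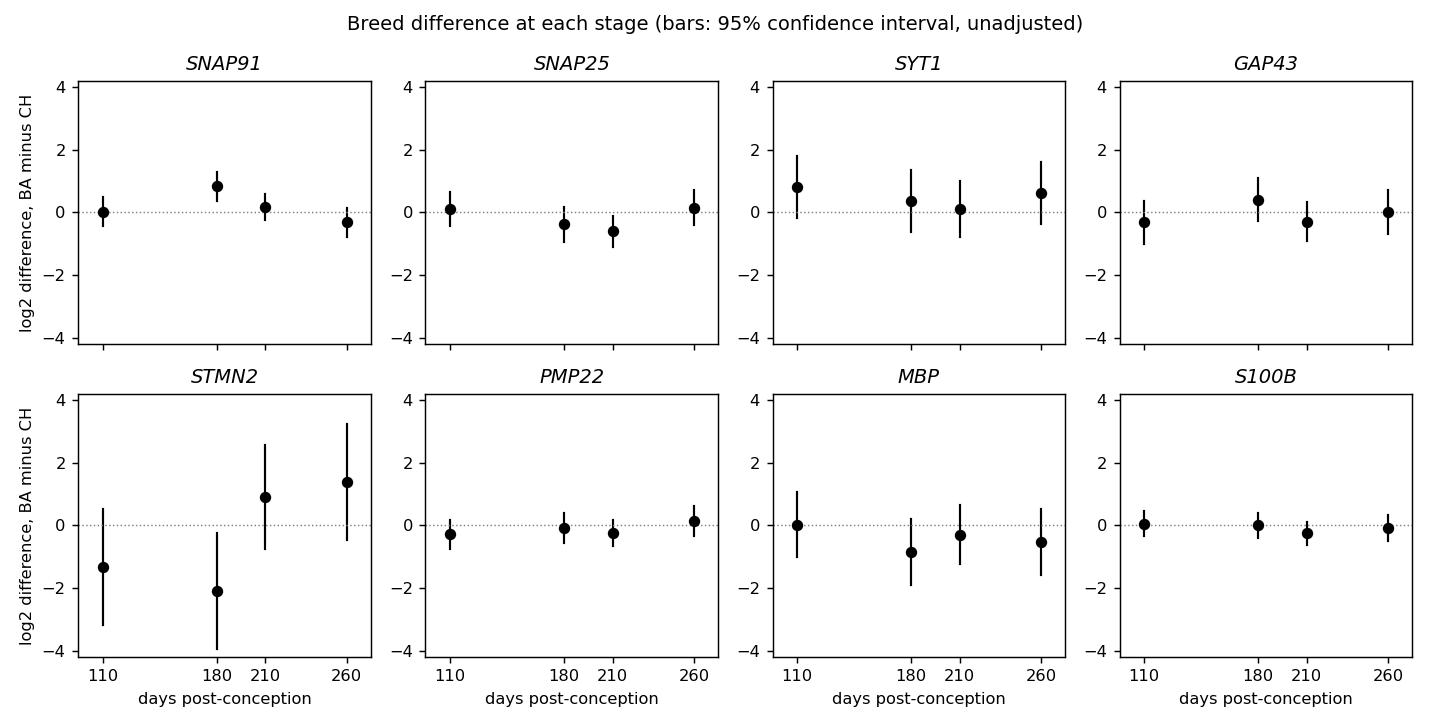
Log2 difference between the breeds, BA minus CH (vertical axes, all on the same range), at 110, 180, 210 and 260 dpc for the 8 genes, with unadjusted 95% confidence intervals. Most intervals hold 0, those of *SNAP91* and *STMN2* at 180 dpc and of *SNAP25* at 210 dpc do not, and *STMN2* has the widest.

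None of the 8 genes differed between the sexes when the 8 groups were fitted too (0.0399% of named genes did), none had an unadjusted p under 0.05 in limma, and the differences lay between −0.38 for *MBP* and 0.64 for *STMN2*. Within the groups, foetuses with more *MBP* tended to have more *PMP22* (Pearson r = 0.46, p = 0.069, Spearman rho = 0.38, p = 0.13, n = 21, permutation within groups, two-sided), and the same was seen for *PMP22* and *S100B* (r = 0.45, p = 0.10, rho = 0.47, p = 0.082). With 6 pairs of genes compared, neither passed (adjusted p 0.30 for both r and 0.38 for both rho), and without the 2 most distant foetuses r was 0.44 and 0.40. For *SNAP91*, r was −0.32 with *GAP43*, −0.22 with *MBP* and 0.19 with *STMN2*, and for *MBP* and *S100B* it was −0.01, with permutation p from 0.24 to 0.98.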

How the data were processed

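RNA of 21 foetal muscles was hybridized to single-colour Agilent arrays. Per the labels and methods, the authors read spot intensity with Feature Extraction 10.7, without background subtraction but with background and multiplicative detrending, and the methods name normalization within and between arrays. Their deposited value table holds log2 intensities of the same arrays, of which 99.996% lay within 0.01 of the log2 scanner values, so that no scaling between arrays was found in it. Control spots and 258 outlier spots were left out, spots of a probe averaged in log2, and the 75th percentile of each array subtracted with a constant of 2.69 added. Probes were named by accession through the annotation of assembly ARS-UCD2.0, and since the array was designed on another assembly no position is given.

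A mean per breed and stage group was fitted with limma 3.58.1 in R 4.3.3 (data.table version 1.17.8, jsonlite 2.0.0; figures with Python 3.11.15 and matplotlib 3.10.9), with 13 residual degrees of freedom and Benjamini-Hochberg adjustment over all 43653 probes, without a filter on dim probes. *SNAP91* was measured by A_73_116976 and the other genes by their brightest probe. Named besides the members were up to 3 genes per list and direction with the lowest p from 110 to 260 dpc, and the 10 genes most like *SNAP91*. *PICALM*, *SNAP23*, *SOX10*, *MAG*, *AP2B1*, *EDNRB* and the genes not detected were named after their values were seen. Of the lists, 3 genes are not reported here and were left out of every list count. The members and lists were chosen with earlier results of these data known. The alternatives were the authors' table, normexp correction (offset 50), median scaling, quantile normalization, 2 filters, sex as a covariate, blocks for slide, scan day or replicate number, variance moderation with trend and robust fitting, the mean of a gene's probes, and each array left out. Bounds and medians for levels not well above background were added after seeing the data. The fit was tested on simulated data in which all other probes had the same mean in every group. It recovered 55 of 100 probes shifted by 1 at 260 dpc and 87 of 100 shifted by 2 (log2). Of the probes without a shift, 15 were called.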

Additional observations from a re-analysis of the deposited data

How the results depend on the processing

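Of 518 values recomputed under other settings, 486 counted as unchanged, as did 868 of 924 with 1 array left out. Single tested values had to keep their direction and their side of the threshold. Counts of genes had to stay close to the main count, and correlations had to keep their sign. Stage changes of *SNAP91*, which had no test, had to stay within its SD within groups. From 110 to 260 dpc, 5 of 7 genes passed without any 1 array, and 3 passed, all higher, under the filter on probes above the median, which left out *SYT1* and *SNAP25*. From 110 to 180 dpc, 1 gene passed with slide as a block, and 1 to 3 with 1 array left out. From 210 to 260 dpc, 1 gene passed in the authors' table, under the filter on probes above the median, with sex as a covariate, with scan day as a block and with the mean of a gene's probes, and 1 to 2 with 1 array left out. The scan day block was chosen after seeing the data. The change of *SNAP91* was −4.54 with normexp, −5.83 in the authors' table and −5.12 with slide as a block, and −5.53 to −5.36 without 1 array. The median of all probes shifted by 0.09 from 110 to 260 dpc in the main scaling, by 0.22 with normexp and 0.19 with median scaling. It shifted by −0.37 in the authors' table, where intensities were not scaled between arrays and some probe values are absent.

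Reversed were only values that passed under no setting. For the change from 110 to 260 dpc these were *GAP43* in the authors' table (−0.038) and *STMN2* with normexp (0.12). The average breed difference of *GAP43* was 0.0054 in the authors' table and −0.14 to 0.041 without 1 array. The breed difference of the change was 0.78 for *SNAP91* and 0.12 for *S100B* with the mean of the probes, and −0.015 for *SNAP25* with normexp. Without 1 array it ranged from −0.24 to 0.30 for *SNAP25*, −0.57 to 0.22 for *SYT1*, −0.028 to 0.69 for *GAP43*, −1.12 to 0.014 for *MBP* and −0.32 to 0.042 for *S100B*. The within-group correlation of *MBP* and *S100B* was 0.048 with quantile normalization. The cause was not tested.

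Replicate numbers did not pair the foetuses, since the deviations of arrays from their group means correlated with a median of 0.004 in 66 pairs of equal number and 0.006 in 126 others. With the replicate block, 5 of the 7 genes passed from 110 to 260 dpc, *SNAP25* reversed in the breed difference of the change (−0.076), and *SYT1* passed from 210 to 260 dpc (−0.91, adjusted p 0.014 in limma). Leaving out an array leaves some groups with 1, which limma assumes to vary like the others.

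Signal over background limits *STMN2*, whose brightest probe was measured on 5 of 21 arrays, and the late levels of *SYT1*.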
